A study of Mus musculus with 6 samples.

Results

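The 9 genes described here encode the pre-B cell receptor, its signalling chains and the enzymes of V(D)J recombination. They are Igll1, Vpreb1, Vpreb2, Vpreb3, Cd79a, Cd79b, Rag1, Rag2 and Dntt. They were picked by name for their roles and matched through their Ensembl identifiers, and all 9 were found among the 55487 genes of the table. Per the labels, RNA-seq was performed on GFP+ bone marrow cells from the femora and tibiae of C57BL/6 recipients. There were 6 libraries, 3 after PBS and 3 after pIpC. The study's text instead describes the cells of its pIpC and PBS comparison as c-Kit+ marrow cells, so the sorted fraction is not settled. The recipients of all groups were CD45.1(+) CD45.2(-) and, per the study's methods, 6 weeks old. All had been irradiated, with 2 fractions of 450 cGy per the series' design text and with a sublethal dose per the study's methods. All had then received 1000 leukemia cells from a CD45.2(+) donor. These cells carried Mx1-Cre, Brd9fl/fl and MA9, the fusion oncogene MLL-AF9 delivered together with GFP. The control libraries therefore carry the same oncogene, the same floxed Brd9 alleles and the same Cre as the libraries labelled pIpC. In this model Cre is driven by the Mx1 promoter, which responds to interferon, and pIpC is a synthetic double-stranded RNA that induces interferon. Each animal had 3 injections of PBS or of pIpC at 20 mg/kg, on alternate days from the day after transplantation, and cells were prepared 10 days after injection. No group here received pIpC without floxed Brd9, so the injection and the deletion cannot be told apart.

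B cell precursors build the heavy chain of their antigen receptor first. RAG1 and RAG2 together cut the DNA at the borders of the V, D and J segments, terminal transferase (the product of Dntt) adds untemplated bases to the opened ends, and the end joining machinery seals them. Before a light chain exists, the new heavy chain pairs with the surrogate light chain, made of lambda 5 (Igll1) and a VpreB protein, and this pre-B receptor signals through CD79A and CD79B. Igll1, Vpreb1, Vpreb2, Rag1, Rag2 and Dntt are switched off as B cells mature, whereas Cd79a and Cd79b stay on in mature B cells. Rag1, Rag2 and Dntt are also used by developing T cells.

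All 9 genes were higher in the libraries labelled pIpC, and for each of them all 3 of these libraries lay above all 3 PBS libraries. On the scale used here, the largest log2 differences were those of Dntt (7.50) and Rag1 (7.38), and the smallest was that of Cd79b (1.25). The order of the largest depends on the method. With DESeq2 on read counts rebuilt from the normalized values, Rag1 (9.30) came first, then Vpreb3 (7.81) and Dntt (7.72). Differences are given on the log2(normalized count + 1) scale, which understates the change of low genes, with adjusted p-values from limma over all 15020 genes tested (Benjamini-Hochberg, called under 0.1). The same test called 25.0% of all genes tested higher and 20.4% lower, and all 3 libraries labelled pIpC lay above all 3 PBS libraries for 30.5% of genes. Only Cd79a and Cd79b reached a mean of 10 normalized counts in the PBS group, which was the minimum over all 6 libraries for a gene to be tested. The other 7 genes entered the test through their values in the libraries labelled pIpC, so the count of 9 of 9 is a description and not support for a shared direction.

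Facts of the libraries bear on these values. The libraries held 19277439 to 23586722 reads assigned to genes. Brd9, the targeted gene, was not lower in the libraries labelled pIpC, with 1632 to 1946 normalized counts in the PBS libraries and 2011 to 2263 in the other group. Its log2 difference was 0.20 (SE 0.13; limma adjusted p = 0.259). The table holds whole-gene values, so a deletion of single exons was not tested. PBS replicate 3 stood apart, with a chi-square of 171 to 194 per gene against the other PBS libraries, which differed from each other by 6.30. Over all genes, 3750 were called higher and 3058 lower, and after quantile normalization 3244 higher and 4078 lower. Bulk RNA-seq cannot tell fewer cells of a type from less RNA per cell.

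Sequences are shown first for the pair of genes whose reads are hardest to tell apart. Vpreb1 and Vpreb2 encode almost the same protein, and their coding sequences, each of 426 bases, differed at 9 positions (97.9% identity), against 48.2% identity between Vpreb1 and Vpreb3. In the following 120 bases, from coding base 268 to 387 (GENCODE M21, GRCm38), the genes differed at 6 positions, which are in capitals.
Vpreb1: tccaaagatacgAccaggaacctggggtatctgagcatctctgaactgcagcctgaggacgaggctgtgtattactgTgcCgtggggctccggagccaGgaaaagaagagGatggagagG
Vpreb2: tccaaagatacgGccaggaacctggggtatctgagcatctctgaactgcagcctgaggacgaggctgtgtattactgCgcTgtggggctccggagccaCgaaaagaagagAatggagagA
Of all stretches of the annotated Vpreb2 transcript as long as a read in the study's methods, 7.55% also occurred exactly in a Vpreb1 transcript. The share was 14.7% for stretches of 100 bases and 32.8% for stretches of 50. How reads were shared between Vpreb1 and Vpreb2 is not given in the sources used here, so the separate values of both genes are uncertain.

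Promoter sequence was available from RefSeq (GRCm38.p6) for 8 of the 9 genes, as windows from 250 bases before to 50 bases after the start site, and not for Cd79b. The windows were searched on both strands for CCCNNGGG, letters bound by EBF family factors, for the E-box letters CACCTG, for a second E-box with the letters CAGCTG, and for the TATA box letters TATAAA. The first E-box occurred in 5 of the 8 windows (Cd79a, Igll1, Rag1, Vpreb1 and Vpreb2) and in 20.2% of all 32851 promoter windows. The second occurred in 3 of the 8 (Igll1, Rag1 and Vpreb2) and in 16.3% of all windows. CCCNNGGG was found in the Igll1 window and in 13.7% of all windows, and TATAAA in 0 of the 8 and in 13.6% of all windows. The 5 windows with the first E-box are printed below because they are the ones that share these letters. Each is printed only as far as the first annotated untranslated base within its window. The printed Vpreb1 bases lie inside the annotated span of that gene, which on the minus strand begins at base 16870843. Matches are in capitals, none overlapped another, and CAGGTG is the first E-box read on the other strand. A match in these letters is a description and not a binding site.
Igll1, chr16:16863986-16864235, minus strand: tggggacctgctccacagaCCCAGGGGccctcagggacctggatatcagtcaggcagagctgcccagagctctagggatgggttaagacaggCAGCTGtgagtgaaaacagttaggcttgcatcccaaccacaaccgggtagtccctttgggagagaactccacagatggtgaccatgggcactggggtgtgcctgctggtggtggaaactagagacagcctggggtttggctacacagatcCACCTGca
Vpreb1, chr16:16869256-16869505, minus strand: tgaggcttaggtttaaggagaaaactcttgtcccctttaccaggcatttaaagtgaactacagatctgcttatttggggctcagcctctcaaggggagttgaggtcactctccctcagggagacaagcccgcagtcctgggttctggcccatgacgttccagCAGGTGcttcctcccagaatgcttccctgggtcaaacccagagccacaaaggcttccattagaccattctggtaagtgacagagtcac
Vpreb2, chr16:17980315-17980427, plus strand: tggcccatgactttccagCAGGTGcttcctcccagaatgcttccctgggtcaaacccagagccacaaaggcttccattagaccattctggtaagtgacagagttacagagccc
Cd79a, chr7:24897247-24897380, plus strand: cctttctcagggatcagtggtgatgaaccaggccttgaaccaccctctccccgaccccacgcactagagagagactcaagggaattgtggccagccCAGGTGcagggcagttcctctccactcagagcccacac
Rag1, chr2:101649533-101649782, minus strand: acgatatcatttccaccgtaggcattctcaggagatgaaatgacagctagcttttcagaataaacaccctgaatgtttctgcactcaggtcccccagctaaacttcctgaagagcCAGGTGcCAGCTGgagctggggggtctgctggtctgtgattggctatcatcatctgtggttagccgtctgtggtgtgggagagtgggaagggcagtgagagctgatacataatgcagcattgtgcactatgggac
Counted from the RefSeq start site, the Igll1 match to CCCNNGGG began at base -231, its match to CAGCTG at -158 and its match to CACCTG at -8. Both E-box matches of Rag1 lay side by side, at -135 and -128. The windows of Vpreb1 and Vpreb2 shared a block of 156 bases with 153 identical and no gap, and this block holds the CAGGTG of both genes. The CAGCTG of Vpreb2, at -60, lies in the annotated untranslated part and is not printed.

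The surrogate light chain genes came first in the comparison. Igll1 (ENSMUSG00000075370, chr16:16860671-16863985, minus strand) encodes lambda 5, the constant-like part of the surrogate light chain. It had 5.19, 0 and 2.26 normalized counts in PBS replicates 1 to 3, against 134, 268 and 362 in the group labelled pIpC. The highest PBS value was far below the lowest value of the other group. Igll1 rose by a log2 difference of 6.44 (SE 0.72; limma adjusted p = 0.000643), from a mean of 2.48 ± 2.60 to 254 ± 115 (SD, n = 3). The difference was 7.03 without PBS replicate 1 and 5.71 without PBS replicate 2 (limma adjusted p = 0.000916 and 0.000958).

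Vpreb1 (ENSMUSG00000059305, chr16:16868403-16870843, minus strand) encodes the variable-like part that pairs with lambda 5, and lies 4417 bases from Igll1. It had 10.4, 1.01 and 14.7 normalized counts in the PBS libraries and 102, 171 and 204 in those labelled pIpC. PBS replicate 2 was the lowest, with 1 read. Vpreb1 rose by 4.43 (SE 0.78; limma adjusted p = 0.00483), from a mean of 8.70 ± 7.0 to 159 ± 52.1. Without PBS replicate 2 the difference was 3.52 (limma adjusted p = 0.0018). An exon of Top3b on the opposite strand shares 108 bases, or 9.01% of the exon bases of Vpreb1, and per the labels the libraries were unstranded. Top3b itself had a log2 difference of 0.04 (limma adjusted p = 0.863).

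Vpreb2 (ENSMUSG00000059280, chr16:17980428-17981273, plus strand) is the near copy of Vpreb1 shown above and lies 1109584 bases away from it. No read was assigned to Vpreb2 in any PBS library, and the libraries labelled pIpC had 11.0, 22.5 and 36.7 normalized counts. Against the limit that a count of 0 allows, 3 reads over the PBS group or a mean of 0.991 normalized counts, Vpreb2 was at least 23.6-fold higher. This limit covers counting error only. The fitted difference was 4.46 (SE 0.53; limma adjusted p = 0.000856), which depends on the pseudocount. Within the libraries labelled pIpC, the level of Vpreb2 per kilobase of exons was 0.170, 0.208 and 0.285 of that of Vpreb1.

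Vpreb3 (ENSMUSG00000000903, chr10:75943057-75949657, plus strand) encodes a VpreB-like protein that binds immunoglobulin chains inside the cell and is not a stable part of the surface receptor. It had 1 read in the PBS group, in replicate 2, and 41.9, 72.5 and 126 normalized counts in the libraries labelled pIpC. The ratio of summed counts was 244, with a counting interval of 43.4 to 9677 (exact, 95%). Vpreb3 rose by 5.87 (SE 0.54; limma adjusted p = 0.000273).

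The genes of the signalling chains differed from each other. Cd79a (ENSMUSG00000003379, chr7:24897381-24902197, plus strand) encodes Ig-alpha, which carries the signal of both the pre-B receptor and the mature B cell receptor. It had 13.0, 18.2 and 30.6 normalized counts in the PBS libraries and 283, 409 and 436 in those labelled pIpC. The groups did not overlap, and PBS replicate 3 was the highest of its group. Cd79a rose by 4.18 (SE 0.35; limma adjusted p = 0.000197), an 18.3-fold difference of means.

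Cd79b (ENSMUSG00000040592, chr11:106311341-106314762, minus strand) encodes Ig-beta, the partner of Ig-alpha. Cd79b was well covered in the PBS group, with 153, 116 and 252 normalized counts, and had 375, 374 and 433 in the libraries labelled pIpC. PBS replicate 3, the library that stood apart, was the nearest to the other group. Cd79b rose by 1.25 (SE 0.29; limma adjusted p = 0.0154), a 2.27-fold difference of means, and by 1.55 without PBS replicate 3 (limma adjusted p = 3.6e-05) and 1.00 without PBS replicate 2 (limma adjusted p = 0.0367).

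The balance of both chains differed between the groups. Per kilobase of exons, Cd79b stood at 12.0, 6.51 and 8.41 times the level of Cd79a across the PBS libraries, and at 1.35, 0.932 and 1.01 times in the libraries labelled pIpC. The chains were thus near parity in the latter and far from it in the PBS group. The log2 ratio fell by 2.94 in the libraries labelled pIpC (3.03 ± 0.43 in PBS and 0.09 ± 0.28, SD, n = 3). The exact two-sided permutation test gave p = 0.1, the smallest that 3 against 3 libraries allow.

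**Figure D1:**
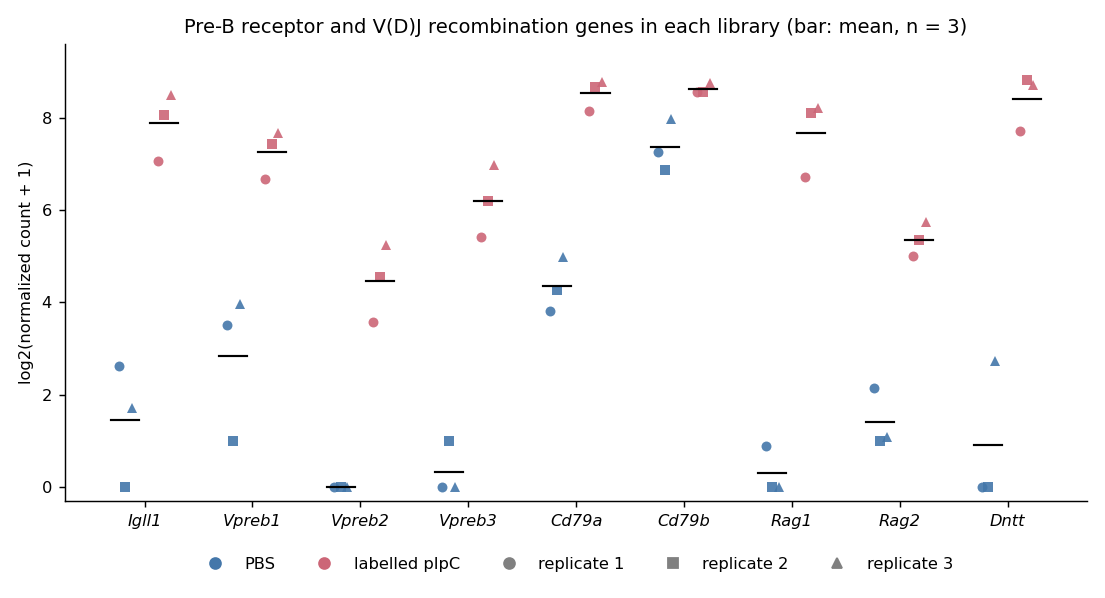
Level of each of the 9 genes in each library, as log2(normalized count + 1), with PBS libraries in blue, libraries labelled pIpC in red, marker shape for the replicate number and a black bar for the mean (n = 3). For every gene all 3 libraries labelled pIpC lie above all 3 PBS libraries, with the smallest gap for Cd79b (252 against 374 normalized counts) and Vpreb2 at 0 in all PBS libraries.

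The recombination enzymes were nearly without reads in the PBS group. Rag1 (ENSMUSG00000061311, chr2:101638282-101649501, minus strand) encodes the catalytic subunit of the recombinase. It had 1 read in the PBS group, in replicate 1, and 105, 275 and 295 normalized counts in the libraries labelled pIpC. The ratio of summed counts was 682, with an exact 95% counting interval of 122 to 26970. Rag1 rose by 7.38 (SE 0.52; limma adjusted p = 9.7e-05).

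Rag2 (ENSMUSG00000032864, chr2:101624718-101632529, plus strand) encodes the subunit that completes the recombinase and reads a histone mark. It lies 5752 bases from Rag1 and is transcribed towards it. Rag2 had 3.46, 1.01 and 1.13 normalized counts in the PBS libraries and 30.9, 39.8 and 52.2 in those labelled pIpC. The groups did not overlap, and Rag2 rose by 3.94 (SE 0.46; limma adjusted p = 0.000736). Exons of B230118H07Rik share 208 bases with Rag2 on the opposite strand and 80 bases with Rag1 on the same strand. B230118H07Rik moved the other way, with a log2 difference of -0.99 (SE 0.28; limma adjusted p = 0.0333).

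Dntt (ENSMUSG00000025014, chr19:41029275-41059525, plus strand) encodes terminal transferase. It had 0, 0 and 5.66 normalized counts in PBS replicates 1 to 3, against 211, 449 and 418 in the group labelled pIpC. All 5 of its PBS reads came from PBS replicate 3. Dntt rose by 7.50 (SE 0.79; limma adjusted p = 0.000492), and by 8.42 without that library (limma adjusted p = 3.13e-07). The difference was 7.05 without PBS replicate 1 and 7.05 without PBS replicate 2 (limma adjusted p = 0.00198 and 0.00226).

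Per kilobase of exons, the levels in the libraries labelled pIpC ran from Cd79b, at 275 ± 23.7 (SD, n = 3), through Cd79a at 258 ± 55.9, Dntt at 157 ± 56.5, Vpreb1 at 132 ± 43.5, Igll1 at 118 ± 52.9 and Vpreb3 at 93.2 ± 49.4, to Rag1 at 34.0 ± 15.8, Vpreb2 at 30.8 ± 17.0 and Rag2 at 12.0 ± 3.12. Across libraries, neighbours in this order overlapped in their values except Vpreb3 and Rag1. Compared within each library, neighbours kept this order with 2 exceptions. Cd79a stood above Cd79b in replicate 2 (280 and 261), and Vpreb2 above Rag1 in replicate 3 (48.4 and 44.6). With the length of the longest transcript in place of all exons, Vpreb1 stood at 205 per kilobase and passed Dntt at 169. In the PBS group Cd79b led with 122 per kilobase, followed by Cd79a with 14.1 and Vpreb1 with 7.26. With all exons, both parts of the surrogate light chain were at like levels in the libraries labelled pIpC. There Vpreb1 stood at 1.37, 1.15 and 1.02 times Igll1 per kilobase. With the longest transcript, Vpreb1 stood at 205 and Igll1 at 118, so this likeness depends on the length used. The recombinase genes were less even, with Rag1 at 1.76, 3.57 and 2.93 times Rag2.

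**Figure D2:**
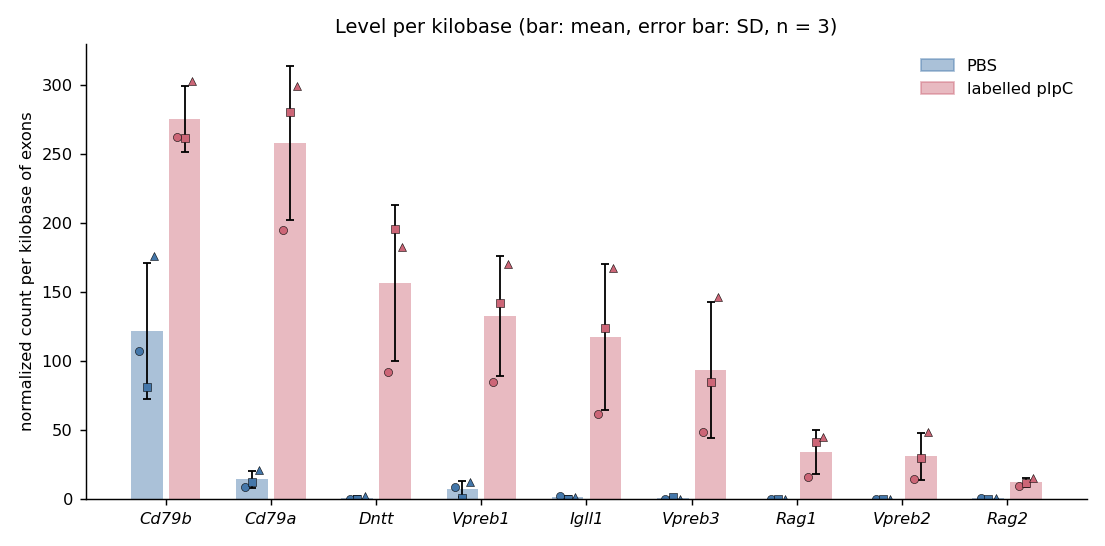
Normalized count per kilobase of exons for the 9 genes, ordered by their mean in the libraries labelled pIpC, with bars for the mean, error bars for the SD (n = 3) and points for the replicates (circle 1, square 2, triangle 3). Cd79b and Cd79a are the highest in the libraries labelled pIpC (275 and 258), and in the PBS group Cd79b (122) stands far above the next gene, Cd79a (14.1).

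The 3 libraries labelled pIpC were not alike for these genes. The lowest of the 3 was replicate 1 for 8 of the 9 genes, and for Cd79b it was replicate 2, at 374 against 375 normalized counts. No member was highest in replicate 1. Over all genes tested, 38.1% were lowest in replicate 1, and 46.8% of those called higher were. The ratio of replicate 1 to the mean of the other two had a median of 0.486 over the members, from 0.368 for Rag1 to 0.930 for Cd79b, against a median of 0.993 over all genes tested, where 5% lay below 0.587. Igll1 was 2.70 times higher in replicate 3 than in replicate 1 (exact 95% counting interval 2.21 to 3.32), Rag1 was 2.81 times higher (2.25 to 3.55), and Cd79b 1.15 times (1.00 to 1.33). These intervals cover counting error only and compare libraries, not conditions. Without replicate 1 the test still called all 9 members higher, with a log2 difference of 1.28 for Cd79b (limma adjusted p = 0.0559) and 7.86 for Rag1.

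Other lists of B lineage genes did not all follow that order. All 6 mature B cell genes tested were lowest in replicate 1, with a median ratio of 0.579. All 5 plasma cell genes tested were highest in replicate 1, with a median ratio of 1.47, as were 4 of the 5 immunoglobulin constant region genes. Jchain, which links the chains of secreted IgM and IgA, had 8335, 4401 and 4190 normalized counts in replicates 1 to 3. Ighm, the mu heavy chain constant region, had 39147, 8397 and 17362.

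**Figure D3:**
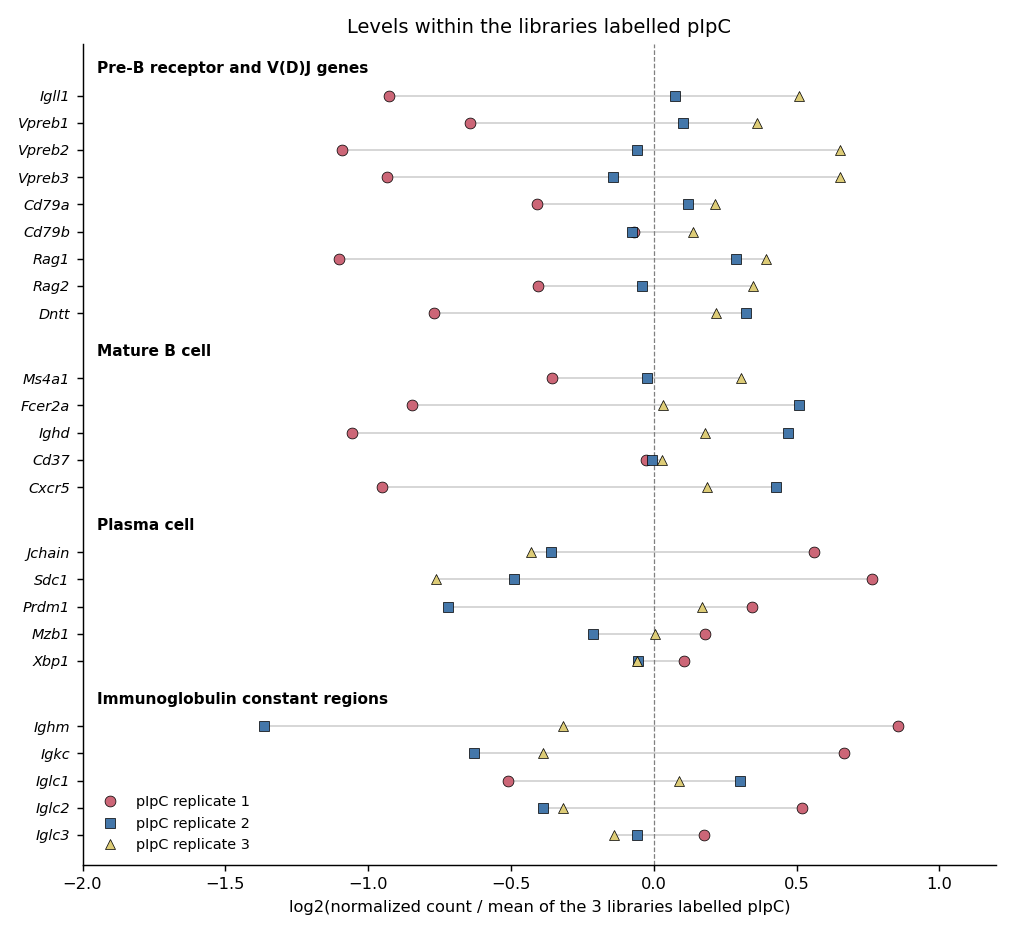
Each gene's level in the 3 libraries labelled pIpC, as the log2 ratio to its own mean over the 3 libraries, with a red circle for replicate 1, a blue square for replicate 2 and a yellow triangle for replicate 3. Replicate 1 is the lowest for 8 of the 9 pre-B receptor and V(D)J genes and for all 5 mature B cell genes shown, and the highest for all 5 plasma cell genes tested.

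The partners of these genes were read from lists of the same pathways. Of 13 genes that join the cut ends or assist cutting and repair, 4 rose, 0 fell and 9 did not pass the test. Over all genes tested 25.0% rose and 20.4% fell, so the count of 4 is near the share over all genes. The median log2 difference was 0.21 beside 0.01 over all genes tested. The 4 were Xrcc5 (1.42), which encodes the Ku80 end binding protein, Lig4 (0.81), the ligase of the pathway, Hmgb2 (0.63), a DNA bending cofactor of the RAG proteins, and Poll (0.46), a polymerase that fills gaps. The lowest was Paxx, at -0.43 (limma adjusted p = 0.241). These genes serve DNA repair in all cells, and all 13 had a PBS mean of at least 10. Without PBS replicate 3, 9 of the 13 passed, 5 higher and 4 lower, and without any other single library 2 did.

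Of 16 genes of pre-B and B cell receptor signalling, 12 rose, 0 fell and 4 did not pass, with a median of 1.15. A PBS mean of at least 10 was reached by 10 of the 16, and the rest passed the filter through the libraries labelled pIpC. The adaptor Blnk had 3.46, 2.02 and 2.26 normalized counts in the PBS libraries and 148, 153 and 241 in those labelled pIpC, a difference of 5.65 (SE 0.34; limma adjusted p = 5.2e-05). The B cell kinase Blk rose by a fitted 5.60, from 1 read in the PBS group. The kinases Syk (1.01) and Lyn (0.61), which myeloid cells also use, had PBS means of 3868 and 2641. The lowest was Btk, at -0.31 (limma adjusted p = 0.10), which did not pass.

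Of 13 B lineage transcription factors, 11 rose, 1 fell and 1 did not pass, with a median of 4.94. Only 6 of the 13 had a PBS mean of at least 10. The rest passed the filter through the libraries labelled pIpC, so the count is a description. Bcl11a, which early B cell development needs, rose most, by 7.75. Pax5, which commits cells to the B lineage, had 1 read in the PBS group and 131, 266 and 258 normalized counts in the libraries labelled pIpC, a ratio of summed counts of 661 (exact 95% counting interval 118 to 26137). Its fitted difference was 7.41 (SE 0.45; limma adjusted p = 5.4e-05). Ebf1, which acts before Pax5 and on several of the genes described here, rose by 5.54 (SE 0.91; limma adjusted p = 0.0035). Ikzf3 fell by 1.65, and Foxo1 stood at -0.15 (limma adjusted p = 0.576).

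Of 9 early lymphoid receptors and stage antigens, 6 rose, 1 fell and 2 did not pass, with a median of 1.57. A PBS mean of at least 10 was reached by 5 of the 9, and the rest passed the filter through the libraries labelled pIpC. Bst1 (BP-3) rose most, by 5.77, and Cxcr4 fell by 0.52. Il7r, the receptor that early B cells depend on, had 7.79, 5.06 and 6.79 normalized counts in the PBS libraries and 47.9, 105 and 119 in those labelled pIpC. Its difference was 3.52 (SE 0.42; limma adjusted p = 0.00085), and replicate 1 was again the lowest of its group. Flt3 rose by 1.45 from a PBS mean of 202. Cd24a rose by 2.92, from a PBS mean of 2342 to 17641, and which cells its reads came from was not tested. Enpep (BP-1), an antigen of pre-B cells, had a difference of 1.57 that passed narrowly (limma adjusted p = 0.0905).

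Markers of other cells moved with the same groups, and their part in the values above was not tested. A PBS mean of at least 10 was reached by 2 of 8 mature B cell, 2 of 6 plasma cell and 3 of 5 constant region genes. The rest of those tested passed the filter through the libraries labelled pIpC, so the counts below are a description. Of 8 mature B cell genes, 6 could be tested, of which 4 rose and 1 fell. Ms4a1 (CD20) had no read in the PBS group and 51.9, 65.4 and 82.2 normalized counts in the libraries labelled pIpC, at least 67.1-fold higher against the limit of 3 reads over the PBS group. Ighd, the delta heavy chain of mature B cells, rose by 5.13, and Cd37 fell by 0.55. The summed level of this list ran from 15590 to 17165 in the PBS libraries and from 14743 to 16201 in the others. Cd37, with a PBS mean of 7240, made up a large part of it. Of 6 plasma cell genes, 5 could be tested and 4 rose, with Jchain highest (6.09), Sdc1 at 4.14 and Xbp1 lowest (0.10, limma adjusted p = 0.593), and the summed level went from 4179 to 5300 in PBS to 9059 to 13935. All 5 immunoglobulin constant region genes rose, from Ighm (3.19) to Iglc2 (5.79), with Igkc at 5.53 and the Iglc genes uncertain as close copies of each other, and their sum went from 1829 to 3250 to 18638 to 63127.

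T cell genes bear on Rag1, Rag2 and Dntt, which thymocytes share. Of 12 listed, 6 could be tested, of which 5 rose (Lck, Trbc2, Trbc1, Cd3d and Cd4) and Bcl11b fell by 7.12. Only 1 of the 12, Bcl11b, had a PBS mean of at least 10, and the 5 that rose passed the filter through the libraries labelled pIpC. The rises ran from 2.19 for Cd4 to 3.97 for Lck, and Cd3d, a chain of the T cell receptor complex, rose by 2.84 (limma adjusted p = 0.00578). Cd3d had 50.9, 41.9 and 33.8 normalized counts in the libraries labelled pIpC, and Cd4 had 36.9, 21.5 and 50.3. For 9 of the 12 listed, all 3 libraries labelled pIpC lay above all 3 PBS libraries, beside 30.5% of all genes tested. Other defining markers had few counts in either group and were not tested. Cd3e had 0.865, 2.02 and 0 normalized counts in the PBS libraries and 14.0, 4.09 and 5.80 in those labelled pIpC. Ptcra, the pre-T receptor alpha chain, had 0 reads in all 3 libraries labelled pIpC and 2 reads in the PBS group. The summed level of the list was 452 to 587 in the PBS libraries and 224 to 243 in the others. Without Bcl11b, the remaining 11 genes went the other way, from 20.8 to 23.8 in the PBS libraries to 220 to 239 in the others. Of 6 plasmacytoid dendritic cell genes, 1 of them with a PBS mean of at least 10, 4 could be tested and 3 rose. Siglech was highest (4.92) and Cd300c lowest (-0.44, limma adjusted p = 0.341), and their sum was 36.2 to 46.7 in the PBS libraries and 118 to 191 in the others.

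The leukemia genes and other lineages differed between the groups as well. Of 5 genes of the MLL-AF9 program, 4 fell and Mecom rose by a fitted 5.05, from 1 read in the PBS group. A PBS mean of at least 10 was reached by the 4 that fell, and Mecom passed the filter through the libraries labelled pIpC. Hoxa9 had 4917, 5172 and 5301 normalized counts in the PBS libraries and 224, 276 and 269 in those labelled pIpC. Meis1 fell by 4.01 and Hoxa10 by 6.38. All 10 neutrophil genes rose (median 6.89, from 3.23 for Mmp9 to 8.23 for Ly6g), and their summed share of all reads went from 0.084% to 0.152% in the PBS libraries to 8.35% to 8.51%. All 9 erythroid genes rose (median 7.91, from 3.26 for Alas2 to 8.52 for Hbb-bs, a gene with a near copy whose reads may be shared). Only 1 of these 9 had a PBS mean of at least 10. The others passed the filter through the libraries labelled pIpC, so that count is a description. By comparison, the 9 members together held 0.00071% to 0.00128% of reads in the PBS libraries and 0.00557% to 0.0104% in the others, so they were a small part of the RNA in either group. The labelled tissue, GFP+ marrow cells of a MLL-AF9 leukemia, had its defining genes Hoxa9 and Meis1 high in the PBS libraries and low in those labelled pIpC. GFP itself is not a gene of the table, so the content of the sorted fraction was not tested.

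**Figure D4:**
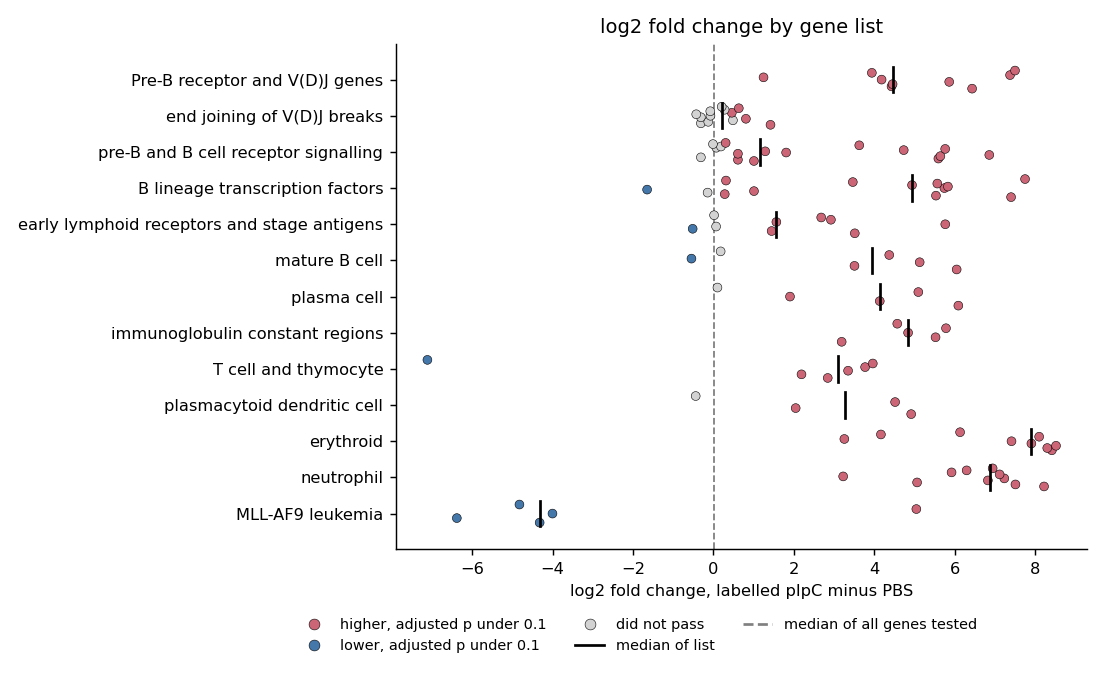
log2 difference, labelled pIpC minus PBS, of each tested gene by list, with red for genes called higher, blue for genes called lower and grey for those that did not pass, a black line for the median of a list and a dashed line for the median of all genes tested. The 9 pre-B receptor and V(D)J genes have a median of 4.46, the end joining list sits near 0 (median 0.21), and 4 of the 5 MLL-AF9 genes lie far to the left.

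The genes whose profile over the 6 libraries was nearest to the mean profile of the members were Zcchc24, Iglc1, Cxxc5, Igsf5 and Bcat1, at distances of 0.513, 0.684, 0.717, 0.760 and 0.775 (Euclidean, on the centred log2 scale). Among the members themselves, Vpreb2 lay nearest to that mean (1.08) and Cd79b farthest (4.72). Iglc1, a lambda light chain constant region gene, had 12.1, 12.1 and 18.1 normalized counts in the PBS libraries and 307, 540 and 466 in those labelled pIpC. It was the constant region gene that was lowest in replicate 1. Zcchc24 had 1.73, 1.01 and 2.26 against 69.9, 86.8 and 93.8.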

How the data were processed

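Marrow cells of transplant recipients, GFP+ per the labels and c-Kit+ per the study's text, were profiled by RNA-seq. There were 6 libraries, 3 PBS and 3 pIpC, with groups taken from the sample titles. Per the labels, RNA was poly(A)-selected and libraries were unstranded, whereas the study's methods for sorted mouse cells name stranded libraries. The submitters' processing notes name GRCm38, HISAT2 2.2.1, SAMtools, featureCounts, Subread and edgeR, whereas the study's methods for sorted mouse cells name a STAR and RSEM workflow on mm10, so which of them made this table is not settled. The deposited values are a normalized signal, gene counts that the authors divided by 1 size factor per library. Division by the smallest step gave a whole number, within 0.1 reads, for 100% of the values above 0 in each library, so read counts could be rebuilt. In pIpC replicate 1 that step, 0.998, is so close to 1 that the recovery rests on the larger values. Recovered totals were 19277439 to 23586722 reads, and 0 sample columns were left unused.

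Symbols and positions came from GENCODE M21, and 55141 of 55487 identifiers had a symbol. limma 3.58.1 (R 4.3.3) with an intensity trend was run on log2(normalized count + 1), keeping 15020 genes whose mean normalized count was 10 or more, with Benjamini-Hochberg adjustment and a threshold of 0.1. The threshold follows the study's methods. Counts were simulated for these 15020 genes, 200 of them shifted by a log2 of 2. There limma found 84% of the shifted genes, while 11.6% of what it called had not been shifted. The simulation shifted far fewer genes than the 6808 called here, and around each gene's mean over all 6 libraries. Its shares therefore do not carry over to this comparison or to genes near 0 in the PBS group. Alternatives changed the pseudocount (0.1 or 10), the filter (none, or a mean of 50 or more), the scaling (median-centred log ratios, or quantile normalization), the samples (leaving out 1 library at a time), the model (no intensity trend, or a replicate block), the tool (edgeR 4.0.16 or DESeq2 1.42.0 on rebuilt reads), the threshold (0.05) and the gene length (longest transcript). A group at 3 reads or fewer was taken as at the floor. Nothing in the labels says that each library of a group came from a separate animal, so p-values measure only the spread between them, which may be technical.

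The members, lists, tests and alternatives were chosen with earlier results of these data known. Named with values are the 9 members, Brd9, the highest and lowest gene of each list, the defining genes Pax5, Ebf1, Il7r, Ms4a1, Ighd, Jchain, Ighm, Igkc, Cd3e, Ptcra, Siglech, Hoxa9 and Meis1, and the 5 genes with the nearest profile. A further gene of this rule is not reported here. Lig4, Poll, Hmgb2, Blnk, Blk, Syk, Lyn, Flt3, Cd24a, Enpep, Foxo1, Sdc1, Cd3d, Cd4, Trbc1 and Trbc2, and the overlapping genes Top3b and B230118H07Rik, were named after their values were seen.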

Additional observations from a re-analysis of the deposited data

How the results depend on the processing

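All 9 members kept their direction and their side of the threshold in each of 150 comparisons with an alternative, with limma, edgeR or DESeq2 adjusted p-values up to 0.0693 (Cd79b without pIpC replicate 3). Only 2 members had a PBS mean of at least 10, and the others passed the filter through the libraries labelled pIpC. Fits without a library kept the genes of the 6-library filter. The count of 150 is therefore a description of these same libraries and not support for a direction. Values moved most for genes with few PBS reads, where the pseudocount sets the size, from 4.39 to 9.91 for Rag1 and from 1.66 to 7.71 for Vpreb2. Cd79b ran from 1.00 without PBS replicate 2 to 1.55 without PBS replicate 3. With a mean of at least 50 only 6 members could be tested, since Vpreb2, Vpreb3 and Rag2 lie below it. The numbers did not pair the samples (correlations of -0.117, 0.143 and 0.041 between libraries of the same number). A replicate block called 9 members and 6095 genes in all, against 6808. Of the end joining list 2 genes passed with the replicate block, 2 at an adjusted p under 0.05, and 2 to 9 with a library left out, against 4, so that count depends on these choices. Poll and Hmgb2 each lost their call in 7 alternatives, Enpep in 8 and Cd37 in 4, and Btk passed in 7. With a mean of at least 50, 4 early lymphoid genes passed, against 7, because fewer genes were tested. Quantile normalization moved the median of all genes to -0.12 from 0.01. In all, 768 of 803 comparisons for the other genes named kept direction and side, and 0 changed direction. The few reads in PBS limit the size of any fold for Rag1, Rag2, Vpreb2, Vpreb3, Dntt and Igll1.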
